A study of Mus musculus with 8 samples.

Results

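The genes described here are Plvap, the caveolins Cav1 and Cav2, the cavins Ptrf (Cavin1) and Sdpr (Cavin2), and the Eps15 homology domain genes Ehd2, Ehd3 and Ehd4. They were chosen by name, as rows of the deposited table of unique molecular identifier (UMI) counts, and all 8 were found among its 16791 genes. The choice was made with earlier results of these data known. The study had singled out Plvap for its rise after infarction, and listed Ehd4 among the top genes of a cluster found only after infarction. The p-values of these genes below are therefore not independent support for those patterns. The study used single-cell RNA sequencing to ask how endothelial cells of the adult mouse heart differ between the healthy state and the week after myocardial infarction (MI). All 8 mice were adult Pdgfb-iCreERT2-R26R-Brainbow2.1 animals, in which the Pdgfb promoter drives a tamoxifen-inducible Cre recombinase that switches on a multicolour (Confetti) reporter, and all received a single dose of tamoxifen (150 mg/kg). In the 4 MI mice (244, 250, 255 and 256) the left anterior descending coronary artery was ligated permanently 14 days after tamoxifen and the ventricles were taken 7 days post-MI. The 4 healthy mice (227, 228, 239 and 240) were harvested 21 days after tamoxifen and the labels name no surgery. Cells were sorted as CD31+, Confetti+ and Podoplanin-, a gate meant to keep descendants of cells in which the Pdgfb promoter was active, with 1 library per mouse. The study used male and female mice, and the labels do not give the sex of each, so its balance between the groups is not known here. With the Xist level of each mouse as a covariate, the same 5 members were called by edgeR between MI and healthy mice over all endothelial cells as without it.

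Caveolae are flask-shaped pits of the plasma membrane that are abundant in capillary endothelium. Caveolins insert into the membrane and cavins coat it to give the pit its shape, while Ehd proteins are membrane-bound ATPases: Ehd2 sits at the neck of the pit, and Ehd3 and Ehd4 act mainly on endosomes. Plvap builds the thin diaphragm that spans the neck of caveolae and the openings of fenestrated endothelium, and in the adult it is known from venules and from fenestrated capillaries rather than from the continuous capillaries of heart muscle.

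On the GRCm38 build Plvap lies at chr8:71497765-71511752 on the minus strand, and Ptrf at chr11:100956733-100970887 on the minus strand. Sdpr spans chr1:51289126-51302960 on the plus strand. Ehd2 lies at chr7:15946958-15967567 on the minus strand, Ehd3 at chr17:73804134-73832094 on the plus strand and Ehd4 at chr2:120089175-120154606 on the minus strand. Cav2 (chr6:17281185-17289115) and Cav1 (chr6:17306335-17341452) are neighbours on the plus strand, with 17219 bases between the end of Cav2 and the start of Cav1. No other annotated gene overlaps any of the 8 on the same strand. The RefSeq promoter table (GRCm38.p6) held entries for 7 of the 8 genes, Plvap not among them. The 250 bases ahead of the start site are shown for the caveolin neighbours, whose levels moved differently after MI, and for Sdpr, the member that fell, 5' to 3' on the plus strand. Capitals mark the GC box, GGGCGG or its reverse complement CCGCCC.
Cav1, chr6:17306085-17306334: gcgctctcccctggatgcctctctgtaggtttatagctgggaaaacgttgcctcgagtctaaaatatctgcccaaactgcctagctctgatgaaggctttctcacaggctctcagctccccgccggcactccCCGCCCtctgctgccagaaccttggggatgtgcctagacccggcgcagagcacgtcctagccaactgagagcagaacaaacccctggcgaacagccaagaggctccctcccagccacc
Cav2, chr6:17280935-17281184: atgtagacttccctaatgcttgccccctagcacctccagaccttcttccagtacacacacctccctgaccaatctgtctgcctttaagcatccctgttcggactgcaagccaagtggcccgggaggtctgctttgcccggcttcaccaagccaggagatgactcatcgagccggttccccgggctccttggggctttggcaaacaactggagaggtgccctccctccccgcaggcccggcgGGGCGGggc
Sdpr, chr1:51288876-51289125: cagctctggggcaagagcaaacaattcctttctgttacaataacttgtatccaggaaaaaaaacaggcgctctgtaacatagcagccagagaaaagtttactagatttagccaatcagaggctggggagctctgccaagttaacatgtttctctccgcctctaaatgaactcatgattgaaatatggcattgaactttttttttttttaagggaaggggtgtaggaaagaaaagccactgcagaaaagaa
The Cav1 and Cav2 windows held 1 GC box each and the Sdpr window held 0, and the motif occurred in 32.7% of 32851 promoters of that length. G and C made up 59.6% of the Cav1 window, 62.0% of the Cav2 window and 40.4% of the Sdpr window. The Cav1 window also held 1 TATAAA (in 12.4% of promoters) and 1 ACGTG, the core of the hypoxia response element (in 16.6%), and neither was found in the Cav2 or Sdpr window. Cav1 has a second entry, chr6:17307390-17307639, with a start inside the gene as annotated above, and that window held none of these motifs. The ETS core CCGGAA (in 12.0% of promoters) was in none of the 3 windows. All motifs were searched on both strands, no match in these windows overlapped another, and a match describes letters, not binding.

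The table held 31028 cells, with 6764977 to 8793655 UMIs per healthy library and 15865234 to 27244947 per MI library. After 1977 cells with more UMIs from haematopoietic, mural, fibroblast, platelet or erythroid genes than from endothelial genes were left out, 29051 endothelial cells remained, 2676 to 3580 per healthy mouse and 3412 to 4810 per MI mouse. Their median UMI count was 1475 to 2080.0 in healthy mice and 3412 to 4685 in MI mice, so depth differed with the group, and shares of cells were taken after every cell was thinned to an equal number of UMIs. The endothelial marker genes summed to 31671 to 38102 CPM (a gene's UMIs per 1000000 UMIs of the summed cells) in these cells of healthy and 23756 to 29311 CPM in those of MI mice, lower in every MI mouse, and haematopoietic markers to 50.5 to 169 CPM in healthy and 332 to 628 CPM in MI mice. Fibroblast markers summed to 14.1 to 39.4 CPM in healthy and 40.2 to 66.9 CPM in MI mice, higher in every MI mouse, and the part of these marker differences in the results was not tested. Healthy 228 and Healthy 239 shared 2041 cell barcodes, of which 2030 were the same cells by their counts, and Healthy 227 and 228 shared 316, of which 301 were copies. Healthy 239 and 240 shared 2 copied cells and the other library pairs 0, with 10 to 40 barcodes in common. The healthy libraries are therefore not wholly independent, and values without the copied cells are given wherever they change a call. MI 255 stood apart from the other MI mice in several members, and values without it are given below on the same terms.

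Over all endothelial cells, Plvap rose most of the 8 genes after MI, Cav2, Ehd3 and Ehd4 also rose, and Sdpr fell. Levels were CPM in the summed endothelial cells of each mouse, and edgeR's quasi-likelihood test compared the 4 MI with the 4 healthy mice. Called genes had a Benjamini-Hochberg adjusted p under 0.05 over the 12330 genes tested. Of the 8 members 5 were called, 4 higher and 1 lower, against 38.0% of all genes tested (2374 higher and 2311 lower, or 3068 and 1740 with library totals in place of TMM scaling). The median log2 fold change was 0.48 over the members and -0.02 over all genes tested. The p-values measure the spread between these mice, and in such sums fewer cells of a type and less RNA per cell cannot be told apart.

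Plvap, the diaphragm gene, was at 14.6, 11.4, 10.7 and 7.66 CPM in Healthy 227, 228, 239 and 240, from 58 to 94 UMIs per mouse. It was at 499, 284, 828 and 234 CPM in MI 244, 250, 255 and 256, from 3406 to 18256 UMIs. Every MI mouse was far above every healthy mouse, and MI 255 was the highest. The means were 11.1 ± 2.83 CPM (SD, n = 4) and 462 ± 270.2 CPM (SD, n = 4), a ratio of 41.6. The edgeR log2 fold change was 5.30 (SE 0.43, adjusted p = 0.000108), and it lay between 4.87 and 5.52 when each mouse was left out in turn.

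Of the caveolins, the structural proteins of the pit, Cav2 rose and Cav1 did not pass the test. Cav2 was at 656, 236, 411 and 256 CPM in the healthy mice and 842, 947, 701 and 908 CPM in the MI mice. The groups did not overlap, although Healthy 227 came close to the lowest MI mouse. The means were 390.0 ± 194 and 849.7 ± 108 CPM (SD, n = 4 each), a ratio of 2.18, and the log2 fold change was 1.04 (SE 0.28, edgeR adjusted p = 0.0161). Cav1 was at 1654, 1762, 1945 and 1917 CPM in the healthy mice and 1968, 2093, 1721 and 1922 CPM in the MI mice. The Cav1 groups overlapped widely. The means were 1819 ± 136 and 1926 ± 155 CPM (SD, n = 4 each), and the 95% interval of the log2 difference ran from -0.17 to 0.17 (edgeR adjusted p = 0.986).

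The cavins, the coat proteins of caveolae, were lower post-MI in Sdpr only by the test. Sdpr was at 2065, 1868, 1708 and 1850.3 CPM in the healthy mice and 1350.2, 1632, 1361 and 1414 CPM in the MI mice. Every MI mouse was below every healthy mouse. The means were 1873 ± 147 and 1439 ± 131 CPM (SD, n = 4 each), a ratio of 0.769, and the log2 fold change was -0.46 (SE 0.088, edgeR adjusted p = 0.00307). Ptrf, which encodes the cavin that caveolae cannot form without, was at 842, 704, 890 and 836 CPM in the healthy mice and 639, 757, 573 and 799 CPM in the MI mice, with overlapping groups. Its log2 fold change of -0.32 (SE 0.12, edgeR adjusted p = 0.0553) did not pass the threshold. It passed with the copied cells left out of Healthy 227 and 228 (-0.37, adjusted p = 0.0267) or of every library (-0.35, adjusted p = 0.0324), with DESeq2 (-0.31, adjusted p = 0.0396), with at least 800 genes per cell (-0.34, adjusted p = 0.0419), without Healthy 228 (adjusted p = 0.0445) and without MI 256 (adjusted p = 0.0199).

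The Ehd genes differed from each other. Ehd2, at the caveolar neck, was at 511, 517, 577 and 572 CPM in the healthy mice and 589, 642, 566 and 586 CPM in the MI mice. These groups overlapped only at MI 255, and the log2 difference had a 95% interval of -0.10 to 0.19 (edgeR adjusted p = 0.644). Ehd3, an endosomal member, was at 7.12, 8.47, 8.21 and 8.32 CPM in the healthy mice and 24.6, 15.1, 44.4 and 14.9 CPM in the MI mice. All MI mice were above all healthy mice, MI 255 by the widest margin. The log2 fold change of Ehd3 was 1.53 (SE 0.34, edgeR adjusted p = 0.00642), with means of 8.03 ± 0.617 and 24.7 ± 13.8 CPM (SD, n = 4 each). Ehd4, its endosomal relative, was at 91.3, 109, 141 and 128 CPM in the healthy mice and 246, 158, 395 and 145 CPM in the MI mice. The groups did not overlap, but MI 256 lay just above Healthy 239. The log2 fold change of Ehd4 was 0.92 (SE 0.29, edgeR adjusted p = 0.0288), with means of 117 ± 21.8 and 236 ± 115 CPM (SD, n = 4 each). The Ehd4 call was lost without MI 255 (0.56, adjusted p = 0.0581), without MI 244 (0.90, adjusted p = 0.0621), without Healthy 227 (0.81, adjusted p = 0.0712), without Healthy 228 (0.89, adjusted p = 0.0715), with every cell thinned to 1000 UMIs (0.69, adjusted p = 0.0737) and without the 5% of cells with most UMIs (0.74, adjusted p = 0.0650).

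**Figure D1:**
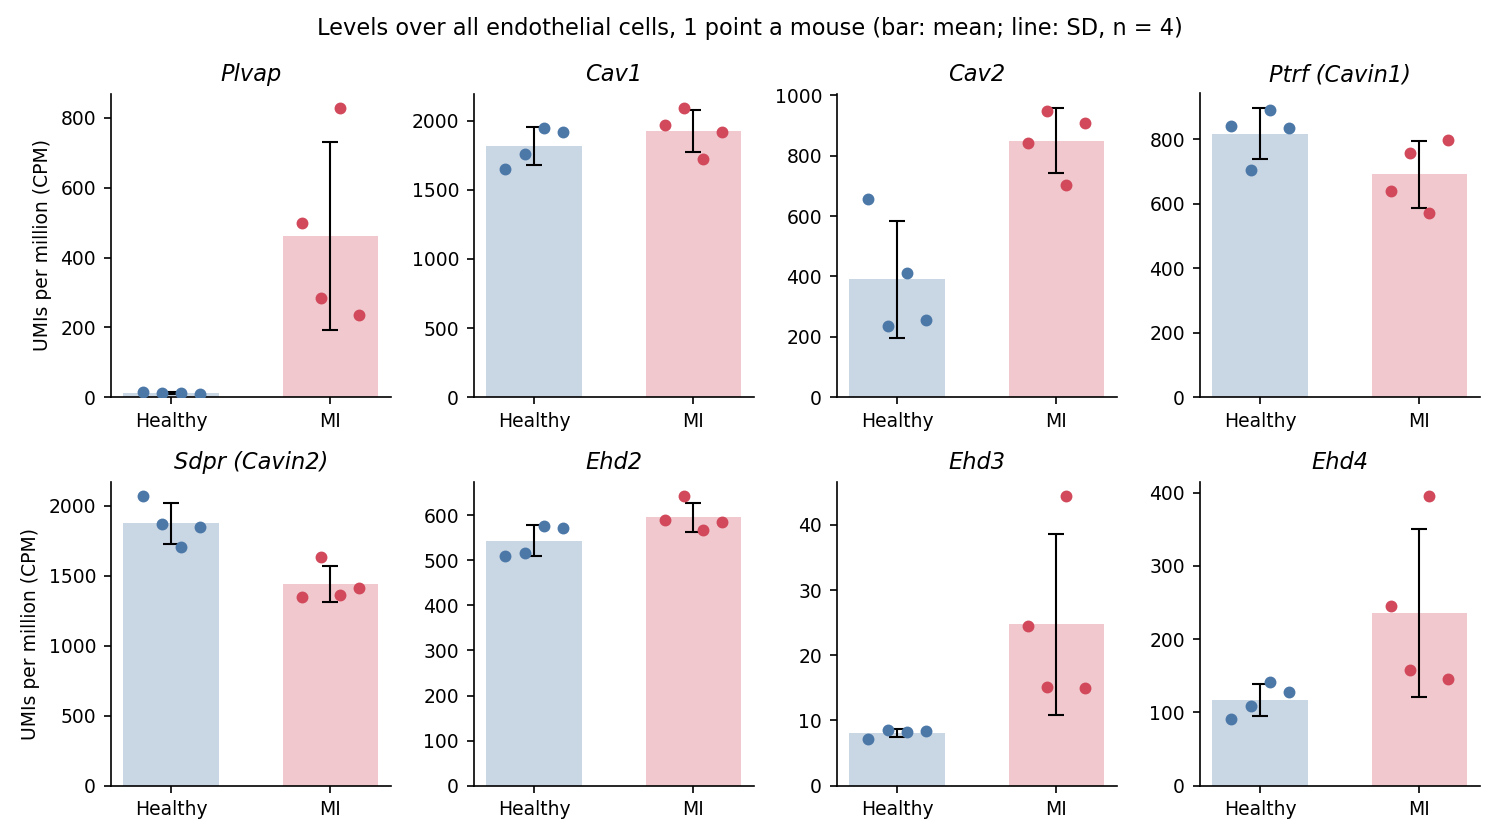
Level of each gene (CPM, linear axis from 0) in the summed endothelial cells of each mouse, 1 point per mouse, with bars at the group means and lines for the SD (n = 4 each). Plvap, Cav2, Ehd3 and Ehd4 lie higher in every MI mouse than in any healthy mouse, Sdpr lies lower, and Cav1, Ptrf and Ehd2 overlap.

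Other genes of the caveolar pathway and of the neighbouring clathrin pathway were read from lists. Of 16 further caveolar partner genes, 15 were in the table and 10 were tested, of which 2 were higher and 2 lower in MI mice, so 4 of 10 were called beside 38.0% of all genes tested, with a median log2 fold change of -0.03 against -0.02 over all genes. Prkcdbp (Cavin3), the third vascular cavin, rose from 321 ± 46.5 to 564 ± 76.8 CPM (SD, n = 4 each; log2 0.73, edgeR adjusted p = 0.00173), and Flna, an actin crosslinker that binds caveolin, rose by log2 0.63 (adjusted p = 0.00137). Ehd1, the endosomal recycling ATPase of the same family as Ehd2 to Ehd4, fell from 359.7 ± 26.8 to 235 ± 46.3 CPM (SD, n = 4 each; log2 -0.69, edgeR adjusted p = 0.00296), and Dnm3, a dynamin, fell by 0.45 on the log2 scale (adjusted p = 0.0262). Of 20 clathrin and flotillin genes 18 were tested, of which 7 were higher, 5 lower and 6 not called, so 12 of 18 were called beside the same 38.0%, with a median of 0.16. The flotillins Flot2 (log2 0.63) and Flot1 (0.41), the clathrin adaptor subunit Ap2m1 (0.53) and the membrane-curving Bin1 (0.51) were among those that rose, and the clathrin assembly genes Fcho2 (-1.09), Epn2 (-0.72), Picalm (-0.50) and Ap2a2 (-0.41) among those that fell.

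The share of cells with at least 1 UMI was taken after each cell was thinned to 1000 UMIs, leaving out 125 to 929 shallower cells per healthy mouse and 0 per MI mouse. Plvap was found in 0.466%, 0.793%, 0.480% and 0.391% of healthy cells and in 16.1%, 10.8%, 28.9% and 8.94% of MI cells. Unthinned, the mean shares were 0.950% and 33.8%. Cav2 was found in 31.0% ± 11.8 of healthy and 56.4% ± 5.31 of MI cells (SD, n = 4 each), Ehd2 in 40.7% ± 2.13 and 44.96% ± 1.38, and Ehd3 in 0.853% ± 0.0894 and 1.71% ± 0.826. In these 4 genes no healthy mouse overlapped an MI mouse, and the two-sided exact permutation test over 70 splits gave its smallest p of 0.0286 and an adjusted p of 0.0571 over the 8 genes. Sdpr was found in 76.5% ± 3.36 and 68.1% ± 3.74 of cells (exact p = 0.0571, adjusted p = 0.0914) and Ehd4 in 10.5% ± 2.19 and 15.5% ± 5.41 (exact p = 0.143). With 1 mouse left out in turn, the Ehd4 difference ran from 2.59 to 6.61 percentage points and that of Ehd3 from 0.456 to 1.06. Cav1 (79.9% and 81.1%) and Ptrf (51.7% and 48.5%) were closer, so 0 of 8 genes passed after adjustment and 4 had an unadjusted p under 0.05. Counting cells with at least 2 UMIs instead, 6 genes passed (Plvap, Cav2, Sdpr, Ehd2, Ehd3 and Ehd4, adjusted p = 0.0381 each, exact permutation test). A gene at the smallest p gets a lower adjusted p when more of the 8 reach it. The change from 0.0571 to 0.0381 is therefore not stronger evidence for any single gene. Shares of cells were tested for the 8 members only, so no share over all genes stands beside these counts.

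With all UMIs counted, the 10% of endothelial cells with most Plvap UMIs held 83.98%, 88.7%, 68.0% and 89.4% of the gene's UMIs in MI 244, 250, 255 and 256. After thinning, cells with at least 5 Plvap UMIs of 1000 made up 1.85%, 0.915%, 3.08% and 0.176% of cells in these mice and 0% in each healthy mouse.

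Cells were next split by marker genes that are not among the 8 members. Among cells thinned to 1000 UMIs, a cell with a Top2a UMI (cycling) formed the Top2a class, and a cell with UMIs of exactly 1 of Car4 (capillary), Gja4 (arterial), Nr2f2 (venous) and Ackr1 (venular) formed the class of that gene. Of 27437 cells, 3835 were in the Car4 class, 1899 in the Gja4 class, 835 in the Nr2f2 class, 188 in the Ackr1 class and 775 in the Top2a class, while 253 were mixed and 19652 (71.6%) held no marker. The Car4 class made up 21.0% ± 1.84 of healthy and 8.95% ± 4.47 of MI cells, and the Ackr1 class 0% and 1.196% ± 1.35 (SD, n = 4 each; exact permutation p = 0.0286, adjusted p = 0.0357 for each). The shares of the Nr2f2 class (1.70% and 4.08%) and the Top2a class (0.840% and 4.16%) passed with the same p, and that of the Gja4 class (6.19% and 7.47%) did not (exact p = 0.429). Without any 1 of the healthy mice 0 classes passed (adjusted p = 0.0714 to 0.107 for the 4 that had), where fewer mice raise the smallest p the test can give. The differences in those fits stayed close: -11.2 to -12.7 percentage points for Car4, 2.20 to 2.51 for Nr2f2, 3.24 to 3.39 for Top2a and 1.196 for Ackr1. Without MI 255 the Ackr1 difference was 0.524 percentage points. The names were then set against the other marker genes, since the gene that chose a class is high in it by rule. The 3 genes of highest fold against the Car4 class in MI mice were Ackr1, Chp2 and Tagln in the Ackr1 class, Gper1, Efhd1 and Dusp26 in the Gja4 class, Sele, Pcdh7 and Col13a1 in the Nr2f2 class, and Pif1, Hist1h1b and Hist1h2ak in the Top2a class. In healthy mice they were Gja4, Gja5 and Fbln5 in the Gja4 class, Ccl21a, Mmrn1 and Serpina1e in the Nr2f2 class, and Pbk, Ube2c and Top2a in the Top2a class. Among the 10 genes of highest fold, the Ackr1 class of MI mice held Sele and Selp as further venular markers, beside the mural gene Tagln. The Gja4 class held Fbln5 as its only further arterial marker in MI mice, and Gja5 and Fbln5 in healthy mice. The Top2a class held 0 further cycling markers among the 10 in MI mice, and Ube2c and Mki67 in healthy mice. Marker lists were also summed without the class genes. The cycling list was at 8352 to 9638 CPM in the MI Top2a class and 726 to 1342 CPM in the MI Car4 class. The venous list was at 1861 to 2792 CPM in the MI Nr2f2 class, 1249 to 1404 CPM in the MI Car4 class and 2359 to 3158 CPM in the Ackr1 class. The Nr2f2 class held 0 venous markers in MI mice, with the venular gene Sele leading and the lymphatic gene Ccl21a among the 10, and in healthy mice Vwf beside Nr2f2 itself, with 2 lymphatic markers. Every class is therefore called by its gene. Cells with at least 3 UMIs of lymphatic genes numbered 5 in the healthy and 12 in the MI Nr2f2 class, and no call of a member in the Nr2f2 comparisons changed without them.

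Plvap was highest in the Ackr1 class of MI mice, at 2820.3, 2220.4 and 2776 CPM in MI 244, 250 and 255 (2606 ± 334, SD, n = 3), MI 256 being left out of tests with 10 such cells (2339 CPM). It was at 562, 682, 1109 and 669 CPM in the Nr2f2 class of MI 244, 250, 255 and 256. It was at 499, 313, 612 and 126 CPM in the Gja4 class. The Ackr1 class was above every other class in every mouse, the Nr2f2 class was above the Gja4 class in each mouse although their ranges overlapped, and MI 256 was the lowest of the Gja4 values. Plvap was at 290, 60.5, 721 and 200 CPM in the Top2a class, which overlapped the Gja4 class, and at 95.4, 98.8, 99.7 and 62.2 CPM in the Car4 class, which had the lowest mean although MI 250 was lower in its Top2a class.

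Against the Car4 class of the same MI mice, with the mouse as a block, 8 of 8 members were called in the Ackr1 class (19.4% of all genes tested), 3 higher and 5 lower. Plvap was higher by log2 4.62 (SE 0.32, edgeR adjusted p = 8.36e-13), Ehd3 by 5.07 (SE 0.37, adjusted p = 2.44e-12) and Ehd4 by 3.29 (SE 0.13, adjusted p = 2.25e-18). Ehd3 was at 376, 279 and 244 CPM in the Ackr1 class of MI 244, 250 and 255, against 1.72 to 9.63 CPM in the Car4 class. Ehd4 was at 1234, 756 and 1296 CPM in these Ackr1 cells, against 74.8 to 125 CPM in the Car4 class. Neither gene's values overlapped between these classes. The caveolins, the cavins and Ehd2 were lower: Cav2 by log2 -1.59 (354 ± 30.4 against 1178 ± 71.2 CPM), Sdpr by -1.16, Cav1 by -1.10, Ptrf by -0.88 and Ehd2 by -0.78, with edgeR adjusted p-values of 4.30e-08 or smaller. In the 10 Ackr1 cells of MI 256, left out of the test, Ehd2 went the other way, at 768 CPM (44 UMIs) against 635 CPM in its Car4 class. Cav1, Cav2, Ptrf and Sdpr were lower in those cells as well.

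In the Gja4 class 7 of 8 members differed from the Car4 class of MI mice (17.3% of all genes tested), 3 higher and 4 lower. Plvap was higher by log2 1.90 (edgeR adjusted p = 1.44e-05), Ehd4 by 1.71 (adjusted p = 3.55e-13) and Ehd3 by 1.73 (adjusted p = 0.00326). Ehd3 was no longer called without MI 244 (adjusted p = 0.0817). Sdpr was lower by log2 -1.08, Ptrf by -0.55, Cav2 by -0.50 and Cav1 by -0.48, and Ehd2 (-0.18, adjusted p = 0.0603) was not called but passed without MI 256 (-0.23, adjusted p = 0.0280).

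In the Nr2f2 class 8 of 8 members differed from the Car4 class of MI mice (17.6% of all genes tested), again Plvap (log2 2.93), Ehd3 (1.86) and Ehd4 (1.22) higher and the other 5 lower. The lower members ran from Cav2 (-0.96, 624 ± 65.6 CPM) through Cav1 (-0.64), Ehd2 (-0.50) and Ptrf (-0.45) to Sdpr (-0.39, edgeR adjusted p = 0.000726). In the Top2a class 7 of 8 members differed (36.7% of all genes tested): Plvap was higher by log2 1.51 (edgeR adjusted p = 0.000314) and Ehd4 by 0.52 (adjusted p = 0.00186), and Ptrf (-0.73), Cav2 (-0.72), Sdpr (-0.65), Ehd2 (-0.55) and Cav1 (-0.52) were lower. The Plvap difference in the Top2a class ran from 0.94 without MI 255 (adjusted p = 0.0242) to 2.05 without MI 250. The Ehd4 call in the Top2a class was lost without MI 255 (0.29, adjusted p = 0.0831) and without the mouse block (0.69, adjusted p = 0.0970). Ehd3 there was at 10.6, 0, 25.9 and 1.61 CPM.

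**Figure D2:**
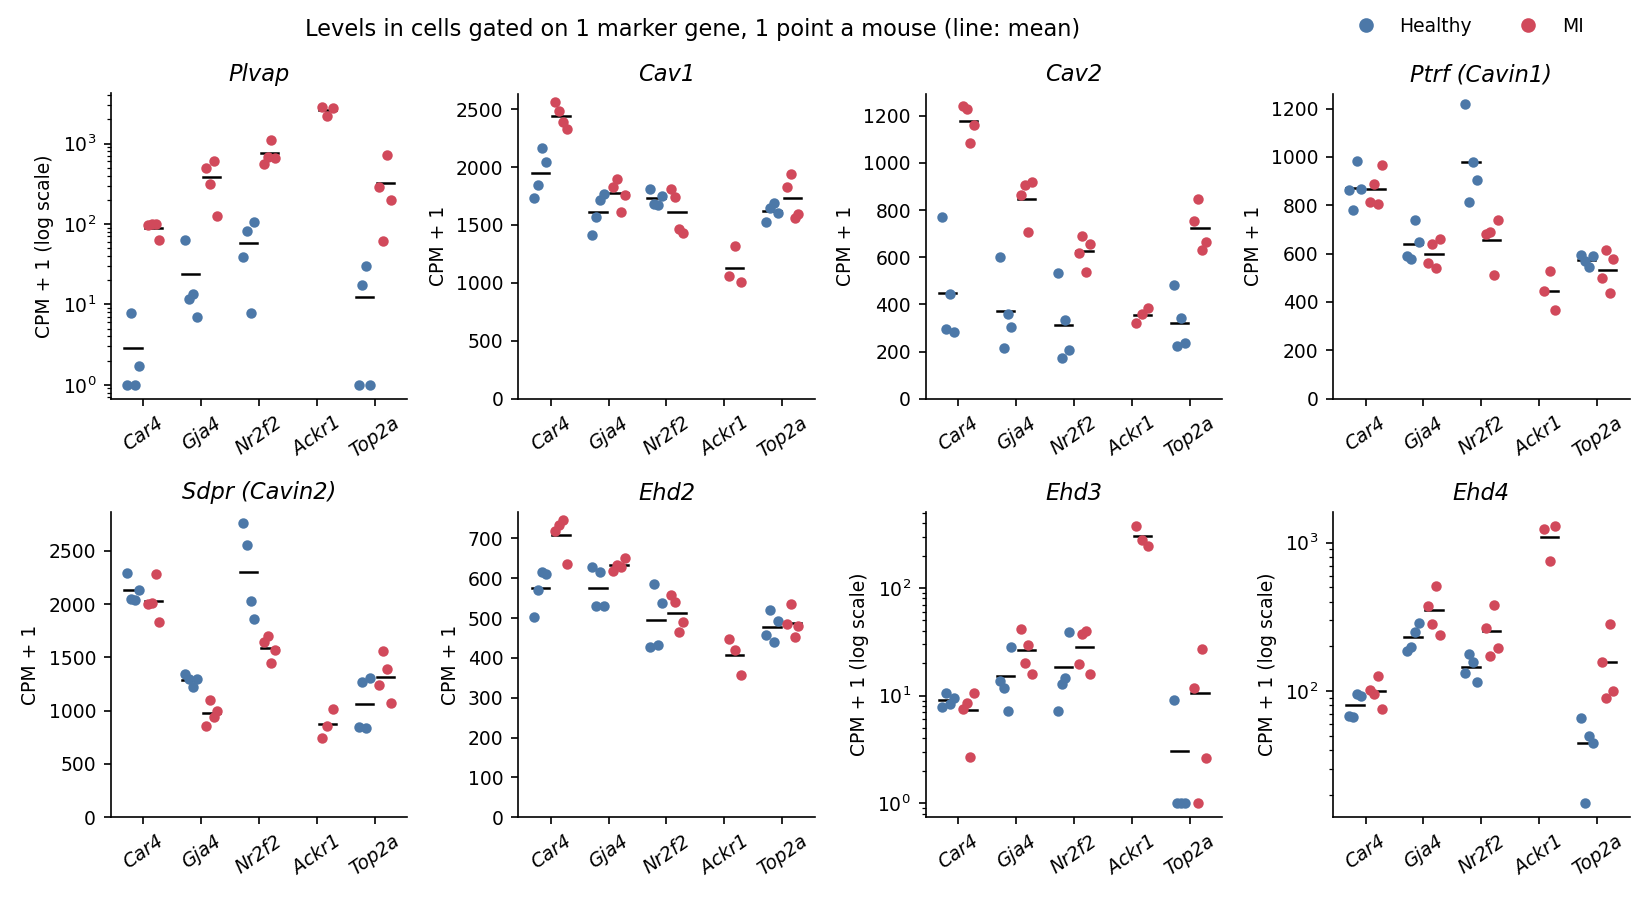
Level of each gene (CPM + 1) in each marker class, 1 point per mouse with at least 20 cells of the class, healthy and MI mice in separate colours and lines at the means; the axis is logarithmic for Plvap, Ehd3 and Ehd4 and linear from 0 for the others. Plvap, Ehd3 and Ehd4 peak in the Ackr1 class of MI mice, where Cav1, Cav2, Ptrf, Sdpr and Ehd2 have their lowest means among the classes of MI mice.

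The classes of healthy mice were compared in the same way, without an Ackr1 class, since no healthy cell entered it, and without Ehd3, which did not pass the filter on low counts. In the Gja4 class 6 of 7 members differed from the Car4 class (23.5% of all genes tested), 2 higher and 4 lower. Ehd4 was higher by log2 1.48 (184, 197, 251 and 288 CPM against 65.8 to 94.5 CPM in the Car4 class, edgeR adjusted p = 4.53e-14). Plvap was higher by 3.29 (adjusted p = 0.000451), but on 30 UMIs in the Gja4 class and 9 in the Car4 class of all healthy mice, 15 of the 30 from Healthy 227. The difference ran from 2.08 without Healthy 227 (adjusted p = 0.0486) to 5.59 without Healthy 228. Placing cells in classes by all their UMIs brought this Plvap difference to 0.97 (adjusted p = 0.34). The pooled healthy Gja4 level of Plvap, 17.8 CPM, was near the 19.3 CPM of healthy haematopoietic cells, which should lack it. Healthy fibroblasts were higher, at 39.3 CPM (5 UMIs). The healthy Car4 class (1.72 CPM), mural cells (1.08 CPM, 1 UMI) and erythroid cells (0 CPM) were lower. The difference is not read as expression in the Gja4 cells, and the part of free RNA or of doublets was not tested. Sdpr (-0.77), Ptrf (-0.49), Cav1 (-0.32) and Cav2 (-0.32) were lower and Ehd2 (-0.05, adjusted p = 0.768) was not called. The Cav2 call was lost without Healthy 227, 228 or 239 (adjusted p = 0.0575, 0.0916 and 0.0768) and without the mouse block (adjusted p = 0.615).

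In the healthy Nr2f2 class 3 of 7 members differed from the Car4 class (11.2% of all genes tested): Plvap (log2 4.76, edgeR adjusted p = 3.01e-06, 32 UMIs in all) and Ehd4 (0.91, adjusted p = 0.000555) were higher and Cav2 (-0.53, adjusted p = 0.00201) was lower. The Plvap difference ran from 4.15 without Healthy 240 to 6.50 without Healthy 228. Plvap was at 6.75 to 104 CPM by mouse in this class. That range overlapped healthy haematopoietic cells (5.13 to 37.2 CPM by mouse) and fibroblasts (0 to 79.5 CPM, 5 UMIs in all). Mural cells (at most 3.89 CPM) and erythroid cells (0 CPM) lay below it. The part of free RNA or of doublets was not tested. The Cav2 call was lost without the mouse block (adjusted p = 0.543), and Ptrf (0.17) and Sdpr (0.12) were not called. In the healthy Top2a class 5 of 7 members differed (37.2% of all genes tested), all lower: Sdpr (-1.03), Ehd4 (-0.88, adjusted p = 0.0202), Ptrf (-0.62), Cav2 (-0.49) and Cav1 (-0.29). Plvap in the healthy Top2a class rested on 5 UMIs (log2 2.43, adjusted p = 0.140, 1.13 without Healthy 239 to 4.18 without Healthy 228) and the class on 20 to 25 cells per mouse. The Ehd4 call was lost without the copied cells (adjusted p = 0.117) and without Healthy 228, 239 or 240 (adjusted p = 0.110, 0.0833 and 0.0757), that of Cav2 without Healthy 227 (adjusted p = 0.111) or the mouse block (adjusted p = 0.369), and that of Cav1 without Healthy 239 (adjusted p = 0.0594).

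MI and healthy mice were then compared within each class. A class rests on 1 UMI of its marker in 1000, so the makeup of its cells can still differ between the groups: the venular marker genes summed to 638 to 1270 CPM in the healthy and 1259 to 2142 CPM in the MI Nr2f2 class, and in the cells with no marker Car4 was at 110 and 62.4 CPM and Ackr1 at 0 and 14.4 CPM on average. The capillary marker genes summed to 22471 to 29402 CPM in the healthy and 15389 to 20427 CPM in the MI Nr2f2 class, lower in every MI mouse. The part of these differences in the results was not tested. In the Car4 class 2 of 7 members were called (15.5% of all genes tested), both higher: Plvap (log2 5.55, SE 0.45, edgeR adjusted p = 1.42e-05) and Cav2 (1.34, SE 0.24, adjusted p = 0.00244). Cav2 was at 768, 295, 445 and 282 CPM in the healthy and 1240.0, 1226, 1084 and 1161 CPM in the MI Car4 cells, without overlap. The healthy Car4 cells held 0, 8, 0 and 1 Plvap UMIs, where 0 UMIs allow up to 2.30 CPM in Healthy 227 and 2.21 CPM in Healthy 239. With so few healthy UMIs the size of the Plvap difference is loose: it ran from 5.13 to 8.01 with each mouse left out, the latter without Healthy 228. Cav1 (0.26, adjusted p = 0.0700), Ehd2 (0.24, adjusted p = 0.109) and Ehd4 (0.22, adjusted p = 0.370) were not called, nor were Sdpr (-0.13, adjusted p = 0.371) and Ptrf (-0.06, adjusted p = 0.740). Ehd2 was called with classes from all UMIs (0.29, adjusted p = 0.0298) and with at least 2 UMIs of the marker (0.30, adjusted p = 0.0395).

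Plvap UMIs were also found in MI cells of types that should lack it. Of 132 mural cells, 5.30% had a Plvap UMI after thinning and the pooled level was 81.7 CPM (38.2 to 127 CPM by mouse), with a median depth of 5333 UMIs. The share in the Car4 class of MI mice was 6.24% ± 2.50 (3.76% to 9.70%, SD, n = 4) at 89.0 ± 18.0 CPM, which is near the mural values, so no expression of Plvap is read from this share, and the part of free RNA or of doublets in it was not tested. Erythroid cells of MI mice were lower, with a Plvap UMI in 1.15% of 87 cells and a pooled level of 24.6 CPM (at most 37.6 CPM by mouse, below each Car4 value), and fibroblasts higher, with 10.9% of 55 cells and 135 CPM. Haematopoietic cells of MI mice, of which 22.3% also held a Cav1 UMI, had a Plvap UMI in 11.4% of 1123 cells. The Gja4 class (13.7%, 6.37% to 21.9%) and the Top2a class (12.8%, 5.37% to 23.4%) were near that share, while the Nr2f2 class (28.5%, 23.8% to 38.7%) and the Ackr1 class (69.96%, 57.1% to 76.9%) were above both. For Ehd3 the Ackr1 class stood at 21.2% of cells against 0.886% in the Car4 class, 3.79% in mural and 1.34% in haematopoietic cells of MI mice. For Ehd4 it stood at 51.1% against 9.12% in the Car4 class, 15.9% in mural and 24.3% in haematopoietic cells. Pooled Cav2 was higher in MI than in healthy mice in these other types too. It was at 165 and 380 CPM in mural, 58.0 and 143 CPM in haematopoietic and 150 and 474 CPM in erythroid cells of healthy and MI mice. In fibroblasts it was at 15.7 (2 UMIs) and 82.7 CPM, and the part of free RNA or of doublets in the Cav2 rise was not tested.

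**Figure D3:**
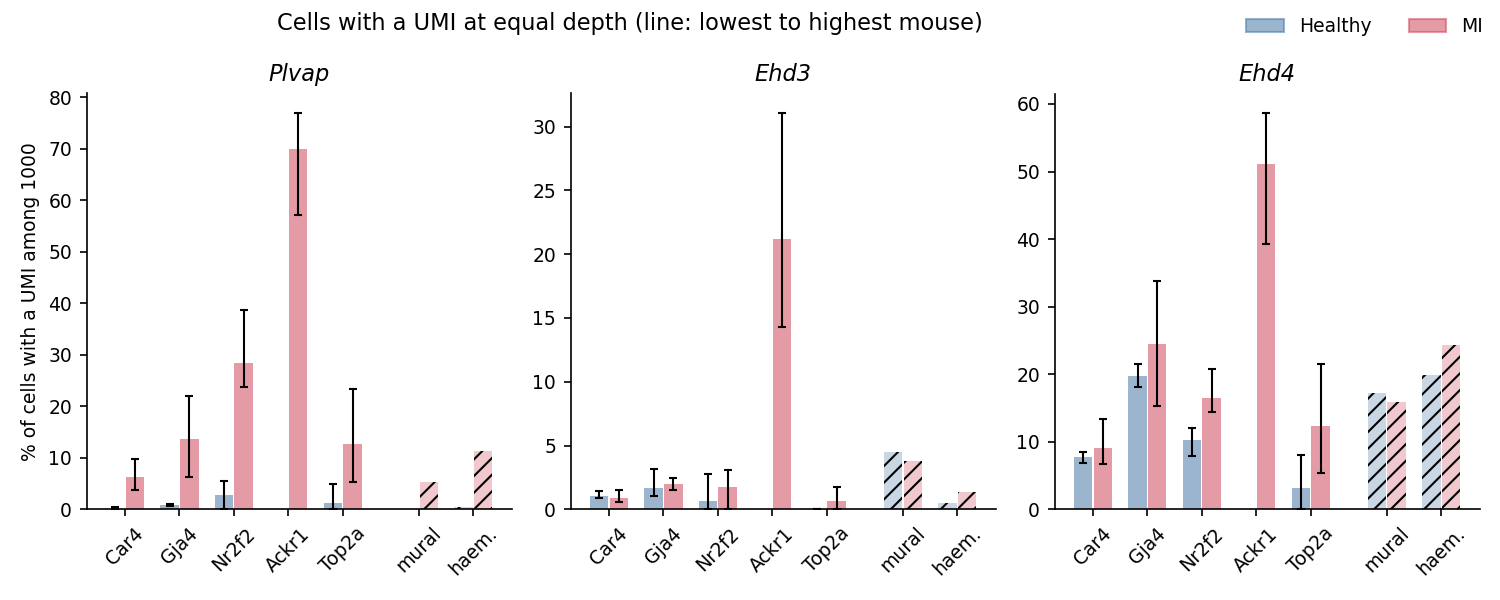
Percent of cells with at least 1 UMI among 1000 thinned UMIs for Plvap, Ehd3 and Ehd4 by marker class, with bars at the mean over mice and lines from the lowest to the highest mouse, and hatched bars for all mural and haematopoietic cells of a group. The Ackr1 class of MI mice holds the highest shares, 57.1% to 76.9% of cells for Plvap.

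In the Gja4 class 3 of 8 members were called between MI and healthy mice (15.4% of all genes tested): Plvap (log2 4.36, SE 0.53, edgeR adjusted p = 4.52e-05) and Cav2 (1.19, SE 0.20, adjusted p = 0.000563) rose, and Sdpr fell (-0.45, SE 0.11, adjusted p = 0.00702). Sdpr was at 1341, 1299, 1221 and 1296 CPM in healthy and 854, 1102, 944 and 1000 CPM in MI cells of this class, without overlap. Plvap in the healthy Gja4 class was at 62.7, 10.7, 12.4 and 6.06 CPM, Healthy 227 standing above the rest and still below every MI mouse. In haematopoietic cells, which should lack it, Plvap was at 5.13 to 37.2 CPM by healthy mouse and 121 to 435 CPM by MI mouse, near the MI Gja4 values of 126 to 612 CPM. Mural cells (38.2 to 127 CPM by MI mouse) and fibroblasts (16.1 to 310 CPM) overlapped only the lowest of these Gja4 values. Erythroid cells (at most 37.6 CPM) lay below each. The higher Plvap level in the Gja4 class is not read as expression in its cells, and the part of free RNA or of doublets was not tested. With 1 mouse left out the Plvap fold change ran from 4.06 without MI 255 to 5.16 without Healthy 227. Ehd4 (0.55, adjusted p = 0.0714) and Ehd3 (1.02, adjusted p = 0.122) were not called, and both passed without MI 256 (0.68, adjusted p = 0.0111, and 1.18, adjusted p = 0.0431). Over all fits with 1 mouse left out, Ehd4 ran from 0.32 to 0.68 (edgeR adjusted p up to 0.239). Ehd3 ran from 0.64 to 1.51 (edgeR adjusted p up to 0.426).

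In the Nr2f2 class 4 of 7 members were called between MI and healthy mice (8.45% of all genes tested), 2 higher and 2 lower. Plvap rose (log2 3.70, SE 0.36, edgeR adjusted p = 4.65e-05) from 37.5, 81.9, 6.75 and 104 CPM, and Cav2 rose (0.92, SE 0.25, adjusted p = 0.0287). Both cavins fell here: Sdpr from 2763, 2557, 2032 and 1857 to 1646, 1697, 1448 and 1565 CPM (log2 -0.61, adjusted p = 0.0107), and Ptrf from 1219, 813, 979 and 905 to 679, 688, 510.2 and 738 CPM (log2 -0.66, adjusted p = 0.0155). Neither cavin overlapped between the groups. The Ptrf call was lost without Healthy 227 (adjusted p = 0.0720), that of Sdpr without Healthy 228 (adjusted p = 0.0581), and that of Cav2 without Healthy 228, 239 or 240 or MI 244 or 250. Ehd4 was not called (0.72, adjusted p = 0.0963) and passed without MI 250 (0.86, adjusted p = 0.0376). Over all fits with 1 mouse left out, Ehd4 ran from 0.46 to 0.86 (edgeR adjusted p = 0.0376 to 0.218).

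In the Top2a class 2 of 7 members were called between MI and healthy mice (2.2% of all genes tested), Plvap (log2 4.79, SE 1.11, edgeR adjusted p = 0.0296) and Cav2 (1.11, SE 0.20, adjusted p = 0.00784). Plvap there, at an MI level (60.5 to 721 CPM) that also overlapped the haematopoietic one, rested on 5 healthy UMIs and lost its call without any 1 of the healthy mice (adjusted p = 0.0626 to 0.134), and without MI 244, 255 or 256 it was dropped by the filter on low counts and not tested. With 1 mouse left out, its log2 fold change ran from 4.39 to 5.75 where it was tested, the latter without Healthy 239. Ehd4 was not called there (1.79, adjusted p = 0.0894) and passed without MI 250 (2.01, adjusted p = 0.0446). Cav2 lost its call without Healthy 228 (1.01, adjusted p = 0.0606). With the copied cells left out 0 members were called, with Plvap at 5.09 (adjusted p = 0.136) and Cav2 at 0.98 (adjusted p = 0.0730). Sdpr was not called here and its estimate lay above 0: it was at 845, 1270.3, 837 and 1307 CPM in the healthy and 1237, 1560.0, 1386 and 1073 CPM in the MI Top2a class (log2 0.23, adjusted p = 0.549, 0.15 to 0.38 with 1 mouse left out), and the groups overlapped. In the 19652 cells with no marker, 5 of 8 members were called (34.6% of all genes tested), the same 5 as over all endothelial cells: Plvap (5.15), Ehd3 (1.31), Cav2 (1.07) and Ehd4 (0.79) higher and Sdpr (-0.44) lower. Plvap in these cells was at 229 to 702 CPM by MI mouse, which overlapped haematopoietic cells (121 to 435 CPM). Its share of cells was 15.7% (8.67% to 26.9%) against 11.4%, and the part of free RNA or of doublets was not tested. Ehd4 lost its call there without Healthy 227 or 228 or MI 244 or 255 (edgeR adjusted p = 0.0703 to 0.0825), and Ptrf gained one without the copied cells (-0.33, adjusted p = 0.0354) and without MI 256 (-0.37, adjusted p = 0.0189).

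**Figure D4:**
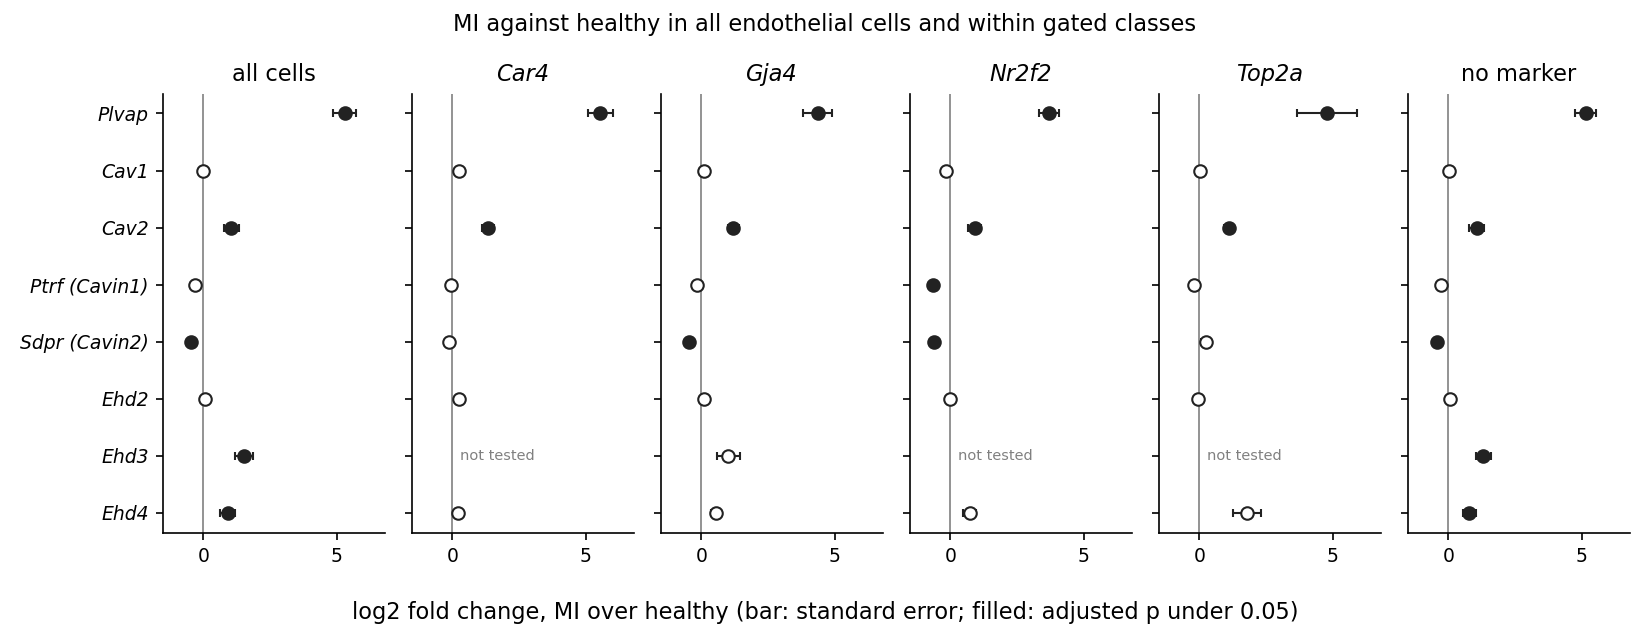
Log2 fold change of MI against healthy mice for each gene, over all endothelial cells, within 4 marker classes and in cells with no marker, with bars for the standard error and filled points where the adjusted p was under 0.05. Plvap and Cav2 lie above 0 and are filled in each panel, while Sdpr is filled and below 0 in the Gja4 and Nr2f2 classes, open and near 0 in the Car4 class and open and above 0 in the Top2a class.

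Whether the response to MI differed between classes was tested as an interaction with the mouse as a block. Between the Nr2f2 and Car4 classes 3 of 8 members were called (0.632% of all genes tested), and all 3 responded more negatively in the Nr2f2 class: Ptrf (difference of log2 fold changes -0.54, SE 0.11, edgeR adjusted p = 0.00707), Cav1 (-0.39, SE 0.093, adjusted p = 0.0280) and Sdpr (-0.42, SE 0.10, adjusted p = 0.0396). The number called fell to 0 without Healthy 227 and without MI 255, and to 1 without Healthy 228. Sdpr also lost its call without Healthy 239 (adjusted p = 0.0667), and Cav1 without Healthy 240 (adjusted p = 0.0527), without MI 256 (adjusted p = 0.0726) and with classes from all UMIs (adjusted p = 0.103). For Plvap the difference was -1.80 (adjusted p = 0.579), and it was called with classes from all UMIs (-2.31, adjusted p = 0.0208). With 1 mouse left out it ran from -3.84 without Healthy 228 to -1.21 without Healthy 240 (adjusted p = 0.313 to 0.821). Between the Gja4 and Car4 classes 0 of 8 members were called by edgeR (1.21% of all genes tested), with 2 at an unadjusted p under 0.05. The difference was -0.32 for Sdpr (adjusted p = 0.137) and -1.42 for Plvap (adjusted p = 0.676, 95% interval -3.32 to 0.47). The latter ran from -4.12 without Healthy 228 to -0.20 without Healthy 227 (adjusted p = 0.331 to 0.983).

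Placing cells in classes by all their UMIs also brought calls that the main classes did not give. Between MI and healthy mice it called Ehd3 (1.18, edgeR adjusted p = 0.0170) and Ehd4 (0.52, adjusted p = 0.0482) in the Gja4 class and Ehd4 (0.77, adjusted p = 0.0235) in the Nr2f2 class. Against the Car4 class of MI mice it called Ehd2 in the Gja4 class (-0.21, adjusted p = 0.00827) and Ehd3 in the Top2a class (1.43, adjusted p = 0.000189). In healthy mice it called Cav1 (-0.23, adjusted p = 0.0121) and Sdpr (0.21, adjusted p = 0.0387) in the Nr2f2 class and Ehd2 (-0.31, adjusted p = 0.00405) in the Top2a class, where Ehd4 was no longer called (-0.24, adjusted p = 0.344). The Ehd3 response differed between the Gja4 and Car4 classes under it (1.40, adjusted p = 0.0257). Sizes moved as well: against the Car4 class, the Ackr1 class stood at 3.70 for Plvap, 3.57 for Ehd3, 2.31 for Ehd4, -0.61 for Cav1 and -0.82 for Cav2, and the Nr2f2 class of MI mice at 1.27 for Ehd3. Between MI and healthy mice the Plvap difference became 6.29 in the Gja4 and 2.75 in the Nr2f2 class. With at least 2 UMIs of the marker it became 4.38 in the Car4, 5.46 in the Gja4 and 2.05 in the Nr2f2 class, and it was called by edgeR in each. Both rules used unthinned counts and kept the shallower cells. Which cells entered a class therefore depended on depth, which was higher in MI mice.

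The Ackr1 class held 1.08%, 0.779%, 4.12% and 0.394% of all endothelial UMIs in MI 244, 250, 255 and 256. It held 6.10%, 6.08%, 13.8% and 3.93% of the Plvap UMIs of the same mice, 16.6%, 14.4%, 22.7% and 4.15% of those of Ehd3, and 5.42%, 3.74%, 13.5% and 2.51% of those of Ehd4. MI 255 had the largest Ackr1 class by share of UMIs and the highest overall Plvap, Ehd3 and Ehd4 levels of these mice. With all 703 MI cells and the 1 healthy cell that had an Ackr1 UMI left out, a choice made after seeing the data, the MI effect over all endothelial cells was log2 4.94 for Plvap, 0.88 for Ehd3 (edgeR adjusted p = 0.00337) and 0.67 for Ehd4 (adjusted p = 0.0416).

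Cells of MI mice with and without a Plvap UMI among their 1000 were set side by side as a description. There were 670, 518, 1088 and 305 such cells in MI 244, 250, 255 and 256, with a median depth of 4816 to 6083 UMIs, against 3318 to 4425 UMIs in the cells without. Ehd3 was 4.95 to 8.21 times and Ehd4 2.33 to 3.64 times as high in the cells with Plvap, by mouse. Cav1 was at 0.681 to 0.725 of its level in the cells without Plvap, Cav2 at 0.591 to 0.611, Ptrf at 0.636 to 0.701, Sdpr at 0.619 to 0.673 and Ehd2 at 0.677 to 0.794. The direction was the same in all 4 MI mice for each of these 7 genes. Ackr1 was 17.2 to 29.4 times as high in the cells with Plvap, and Car4 was at 0.257 to 0.379 of its level in the others.

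**Figure D5:**
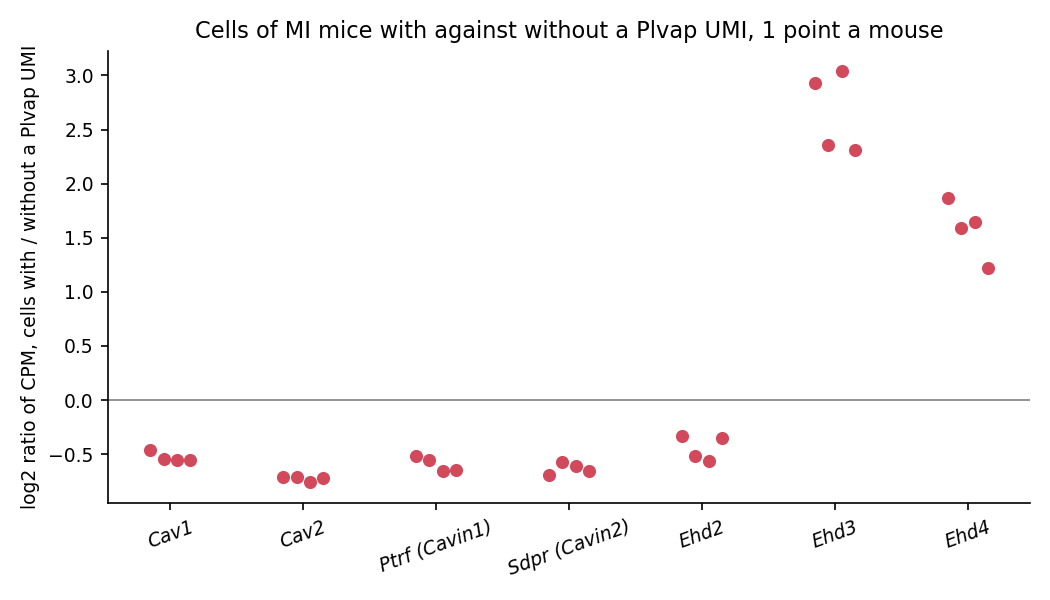
Log2 ratio of the level (CPM) in cells with a Plvap UMI to that in cells without, for each gene and each of the 4 MI mice, with a line at 0 for equal levels. Ehd3 and Ehd4 lie above the line in every mouse, and Cav1, Cav2, Ptrf, Sdpr and Ehd2 below it.

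Likeness between members was taken across 35 sums of a mouse and a class, as Pearson's r of log2(CPM + 20). These sums share mice and depth, and the classes were chosen by Car4, Gja4, Nr2f2, Ackr1 and Top2a, so the values are descriptions. The closest pairs were Ehd3 and Ehd4 (r = 0.850), Ptrf and Sdpr (0.797), Plvap and Ehd4 (0.775), Cav1 and Ehd2 (0.748), and Plvap and Ehd3 (0.743), followed by Cav1 and Ptrf (0.673). The neighbours Cav1 and Cav2 reached 0.457, the highest value of Cav2 with any other member, and Cav1 and Ehd3 ran against each other (-0.673). Among the 3358 genes averaging 50 CPM or more in these sums, those most like Plvap were Lrg1 (0.946), Lgmn (0.913) and Rps2 (0.911). Those most like Ehd3 were Ackr1 (0.913), Grrp1 (0.871) and St3gal4 (0.871), the place of Ackr1 resting on the class that it chose, and most like Ehd4 were Clu (0.896), Entpd1 (0.866) and Mmrn2 (0.866). Sdpr was most like Fabp4 (0.872), a fatty acid carrier, Lpl (0.866), the lipoprotein lipase, and Fmo1 (0.844), and Ptrf most like Cd36 (0.861), a fatty acid transporter, Timp4 (0.858) and Dhrs3 (0.850). Cav1 was most like Afap1l1 (0.850), Gpihbp1 (0.830), which anchors lipoprotein lipase on capillaries, and Tspan13 (0.785). Cav2 was most like Ucp2 (0.837), Irgm1 (0.790) and Serinc3 (0.775), and Ehd2 most like Arhgap10 (0.776), Art3 (0.760) and Cav1.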

How the data were processed

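The authors' deposited table held raw UMI counts per gene and cell, made with Cell Ranger on mm10; the submitters' notes also name R 3.5.2 and Seurat 2.3. No cell held fewer than 403 genes or more than 19.963% mitochondrial UMIs. The sort gate was set against doublets and no doublet caller was run here. Healthy libraries held 6764977 to 8793655 UMIs and MI libraries 15865234 to 27244947. Counts were summed per mouse, or per mouse and class with at least 20 cells, and tested with edgeR 4.0.16 (R 4.3.3) by its quasi-likelihood test, with TMM scaling, filterByExpr and Benjamini-Hochberg adjustment over all genes tested. For shares of cells the test was an exact permutation over mice, two-sided (scipy 1.17.1), which cannot go below 0.0286. The steps were tested on simulated data. Alternatives were DESeq2 1.42.0, no TMM, no filter, thinned cells, cells left out, another class rule and no mouse block. Members and lists were chosen with earlier results of these data known. The text names all 8 members, up to 4 called genes per direction of each partner list, the 3 genes most like each member and the 3 leading genes of a class as its check. Intervals and limits cover counting error only where they come from UMIs of a single library.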

Additional observations from a re-analysis of the deposited data

Results flagged for a closer look

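In 112 groups of 4 mice, 6 had a highest or lowest mouse whose gap to the next was above Dixon's 95% critical value, and chance gives about 1 in 20 groups. In the Car4 class Plvap was highest in Healthy 228 at 6.92 CPM and lowest among MI mice in MI 256 at 62.2 CPM. In the Gja4 class the highest healthy Plvap level was that of Healthy 227 at 62.7 CPM. Ehd2 in the cells with no marker was highest in MI 250 at 647.0 CPM. Ehd3 in the healthy Top2a class was seen in Healthy 227 alone, at 8.13 CPM from 1 UMI. The share of healthy cells with an Ehd3 UMI was lowest, at 0.720%, in 1 of the healthy mice.

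The MI effect differed between the Nr2f2 and Car4 classes by the interaction test for Ptrf (-0.54), Sdpr (-0.42) and Cav1 (-0.39). The number of members called in that test fell to 0 without Healthy 227 or without MI 255, and to 1 without Healthy 228.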

How the results depend on the processing

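Over all endothelial cells the log2 fold changes of Plvap, Cav2, Sdpr, Ehd3 and Ehd4 kept their sign under every alternative run. Cav1, at -0.002, took the other sign at 0.0108 with DESeq2, 0.0825 without TMM, 0.0124 without a filter, 0.0614 in thinned cells, 0.0016 without the copied cells of Healthy 227 and 228 (but not without those of every library), 0.0105 with at most 10% mitochondrial UMIs, 0.00996 without the 5% of cells with most UMIs, 0.0256 without cells with an Ackr1 UMI and 0.0058 with Xist as a covariate, and ran from -0.0496 to 0.0561 with each mouse left out. Thinning brought the genes called from 4685 to 2612. Placing cells in classes by all their UMIs gave 2309 genes called in the Car4 class, 855 in the Nr2f2 class and 5 members in the Gja4 class between MI and healthy mice, 833 genes in the Ackr1 class against the Car4 class, and in healthy mice 1628 genes for the Gja4 class and 5 members and 1008 genes for the Nr2f2 class. It gave 1 member and 311 genes for the Gja4 interaction, where Plvap became 1.05, and 192 genes for the Nr2f2 interaction. Without the mouse block the healthy Gja4 class had 610.0 genes called and the healthy Nr2f2 class 237 genes and 1 member, while no paired analysis of MI against healthy mice was possible because the groups share no mouse number. Without copied cells the Top2a class had 0 members and 17 genes called, with Ehd2 at 0.0275. With at least 2 UMIs, 6 members passed in shares of cells. With each mouse left out, calls between MI and healthy mice numbered 681 to 1591 genes in the Car4 class, 3 to 5 members in the Gja4 class, 2 to 4 members and 277 to 573 genes in the Nr2f2 class, and 0 to 3 members and 16 to 124 genes in the Top2a class. They numbered 1193 to 1911 genes for the Ackr1 class, 322 to 491 genes for the healthy Nr2f2 class, 3 to 4 members for the healthy Top2a class, 66 to 143 genes for the Gja4 interaction, 0 to 3 members and 32 to 85 genes for the Nr2f2 interaction, and 0 to 4 classes in class shares. Ehd2 ran from -0.0778 to 0.0974 in the Nr2f2 class, -0.0743 to 0.0522 in the Top2a class and -0.13 to 0.0076 in the healthy Gja4 class, Cav1 from -0.0186 to 0.0922 in the Top2a class and -0.0063 to 0.0871 in cells with no marker, and Ehd3 from -0.79 to 0.82 in the Top2a class against the Car4 class. The cause was not tested. Depth limits Plvap and Ehd3 in healthy classes, where each class holds 1 to 42 UMIs of either gene over the 4 healthy mice.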
